A study of Mus musculus with 47 samples.

Results

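The genes described here encode the proteins of the cytosolic ribosome. The rule that picked them uses symbols only, but it was chosen with earlier results of these data known. Each row of the exon count table whose symbol is Rpl or Rps followed by a number, with or without a closing a or x, was taken. Rplp0, Rplp1, Rplp2 and Rpsa were added. The rule found 77 genes among 38087 rows, 31 of the small and 46 of the large ribosomal subunit, spread over 19 chromosomes. The mice were C57BL/6j males fed ad libitum and aged 15 to 16 weeks, and RNA was taken from their duodenum and their ileum. One group of mice was conventionally raised (convR), with an ordinary gut flora, and the other was germ-free (GF), kept without any microbes. Tissue was taken at zeitgeber times (ZT) 2, 6, 10, 14, 18 and 22, counted in hours from lights on, and most combinations of tissue, microbial status and time have 2 libraries, numbered replicate 1 and replicate 2 in the labels. There are 12 libraries of convR duodenum, 12 of GF duodenum, 12 of convR ileum and 11 of GF ileum. GF ileum at ZT2 has 1 library, replicate 2; the other is not analysed here. The labels do not say that replicate 1 and replicate 2 are separate animals, so the p-values measure the spread between these libraries, which may in part be technical.

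A eukaryotic ribosome joins a small subunit, which reads the messenger RNA, to a large subunit, which forms the peptide bond. Most ribosomal proteins are needed in the same molar amount, and in mammals most are made from a single active gene. Their mRNAs begin with a C and a run of pyrimidines, the 5′ terminal oligopyrimidine (TOP) motif, through which mTOR signalling and the La-related protein Larp1 control their translation. In the intestine, protein synthesis is highest in the dividing crypt cells and in secretory cells. In bulk tissue, fewer cells of a type and less RNA per cell cannot be told apart, and an mRNA level says nothing of the translation of that mRNA.

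Some of these genes hold a run of pyrimidines near an annotated start. RefSeq promoter windows of assembly GRCm38.p6 matched 55 of the 77 symbols. A run of at least 8 C or T on the sense strand, lying between 15 bases before and 30 bases after an annotated start, was present in 30 of these 55 genes (54.5%) and in 18.9% of the 26969 other genes with a window. The letters CCGGAAG, the core bound by ETS factors such as GABPA, were searched on both strands of each window of 300 bases; their reverse complement opens with a stretch of pyrimidines that can overlap the run just described. They were found in 23 of 55 members (41.8%) and in 9.86% of other genes. Such matches describe the letters only. A run was not required to open with a C or to lie at the start itself, so these are not counts of the TOP motif. Each sequence below covers 75 bases before and 25 bases from the annotated start, read 5′ to 3′ on the gene's own strand, with the pyrimidine run in capitals. Rps26, Rps24, Rpl37a, Rpl28 and Rpl35 are shown because they are, apart from Rps12, the members with the largest tissue differences in GF mice, Rps21 because it had the largest fall in GF duodenum, and Rps16 because it followed the other members least. Rps26 lies on chr10:128626482-128626581 (minus strand), Rps24 on chr14:24490603-24490702 and, for its other annotated start, chr14:24490678-24490777 (plus strand), Rpl37a on chr1:72711185-72711284 (plus strand), Rpl28 on chr7:4792890-4792989 (plus strand), Rpl35 on chr2:39005107-39005206 (minus strand), the first of the annotated starts of Rps21 on chr2:180257304-180257403 (plus strand) and Rps16 on chr7:28350614-28350713 (plus strand).
Rps26: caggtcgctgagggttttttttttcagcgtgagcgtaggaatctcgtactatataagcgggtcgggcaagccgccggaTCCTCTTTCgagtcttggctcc
Rps24, first start: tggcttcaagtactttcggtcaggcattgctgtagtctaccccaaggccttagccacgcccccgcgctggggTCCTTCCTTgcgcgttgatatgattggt
Rps24, other start: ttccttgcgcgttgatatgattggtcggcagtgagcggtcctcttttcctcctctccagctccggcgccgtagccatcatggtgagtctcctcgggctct
Rpl37a: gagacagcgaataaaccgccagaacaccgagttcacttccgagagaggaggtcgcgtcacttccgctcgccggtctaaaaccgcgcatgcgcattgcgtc
Rpl28: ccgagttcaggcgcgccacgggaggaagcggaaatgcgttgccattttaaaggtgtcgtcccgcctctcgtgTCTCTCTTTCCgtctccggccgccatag
Rpl35: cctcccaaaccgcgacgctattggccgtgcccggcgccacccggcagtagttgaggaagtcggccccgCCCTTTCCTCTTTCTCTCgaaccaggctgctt
Rps21, first start: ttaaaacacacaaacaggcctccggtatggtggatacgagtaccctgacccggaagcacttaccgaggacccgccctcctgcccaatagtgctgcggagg
Rps16: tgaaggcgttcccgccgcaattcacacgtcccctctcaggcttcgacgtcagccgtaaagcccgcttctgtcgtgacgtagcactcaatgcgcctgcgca
The run was 18 bases long in Rpl35, 11 in Rpl28 and 9 in Rps26 and at the first start of Rps24. At the required position none was found in Rpl37a, Rps21, Rps16 or at the other start of Rps24. The window of Rps12, not printed, held a run.

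Library totals ranged from 22.5 M to 41.9 M counted exon reads, and every member had at least 1067 counts in every library (highest 32594, Rplp0). Levels are given as CPM, a gene's counts per M counted reads of its library, scaled between libraries by TMM, a method that sets the bulk of genes equal; dividing by summed exon length in kilobases gives RPKM, the only scale on which genes are compared with each other here. Before the results, 2 features of the libraries matter. First, 8 duodenum libraries and 2 ileum libraries stood apart, by acinar pancreas or stomach transcripts above 100 CPM, a TMM factor above 1.2, or, in ileum, Fabp6 (an ileal bile acid binding protein) below 1000 CPM; Fabp6 was at most 2.41 CPM in duodenum. Second, in convR mice the member genes differed between the replicate numbers. The members' index is the mean of log2(CPM + 0.5) over the 77 genes, set relative to its mean over the 47 libraries. In convR duodenum it was higher in replicate 2 than in replicate 1 at 6 of 6 times, by 0.25 on average (0.15 to 0.42), and in convR ileum at 6 of 6 times by 0.23 (0.13 to 0.33). All 77 members shared that direction in both tissues, whereas the median over all genes differed by -0.007 and 0.004. In GF duodenum replicate 2 was higher at 3 of 6 times (mean -0.01) and in GF ileum at 4 of 5 times (mean 0.06). Mean levels of oxidative phosphorylation genes, per library total and without TMM scaling, moved with the replicate number too, from 174 CPM in replicate 1 to 197 CPM in replicate 2 of convR duodenum and from 121 to 142 CPM in convR ileum. The labels do not say what the numbers stand for, and each comparison below is therefore also given within replicate 1 and within replicate 2.

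**Figure D1:**
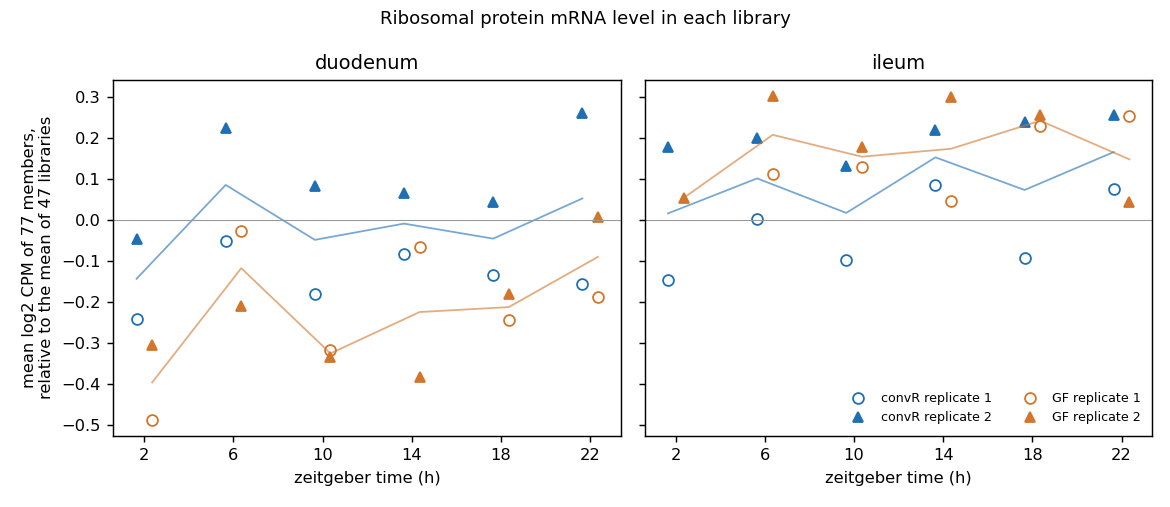
Index of the 77 ribosomal protein genes (y axis, log2 relative to the mean of the 47 libraries) in each library against zeitgeber time in hours (x axis), in duodenum and ileum. Blue is convR and orange GF, open circles are replicate 1, filled triangles replicate 2, and lines join the means; in convR mice the replicate 2 points lie above the replicate 1 points at all 6 times, and GF duodenum reaches the lowest value, -0.49.

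Together the members took 1.75% ± 0.212 of all counted reads in convR duodenum (SD, n = 12; 1.48 to 2.08%), 1.39% ± 0.160 in GF duodenum (n = 12; 1.19 to 1.70%), 1.93% ± 0.156 in convR ileum (n = 12; 1.64 to 2.12%) and 1.97% ± 0.156 in GF ileum (n = 11; 1.72 to 2.15%). The GF duodenum range overlapped that of convR duodenum, and the ileum groups overlapped nearly whole. Per kilobase of exon the members spanned a wide range although most of their proteins are needed in equal amounts. The highest were Rps27 at 736 ± 120 RPKM over the 47 libraries (SD, n = 47), Rplp1, a stalk protein, at 704 ± 96.7, Rps12 at 441 ± 75.1, Rps26 at 426 ± 113 and Rps24 at 397 ± 71.1. The lowest were Rps19 at 39.3 RPKM, Rps28 at 38.5, Rpl35a at 29.9, Rps15a at 26.03 and the row named Rpl24 at 25.9. The exon lengths run from 255 to 6262 bases and count every annotated exon, rare long ones included, so this order is uncertain. For neighbours such as Rps27 and Rplp1 the difference is smaller than the SD across libraries. The row named Rpl24 carries the identifier ENSMUSG00000022601, which GENCODE M21 gives to Zbtb11 on chromosome 16, so which gene it counts is uncertain; it is kept under the rule, and counts without it are given in the closing section. Within their bounds 30 members hold 59 small nucleolar RNA genes and 19 overlap another coding gene, and how reads in such overlaps were counted is not stated.

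The first question was whether the absence of microbes alters these genes in duodenum. They were lower in GF than in convR duodenum, by a small step in a shared direction. Fitted with time as a factor in edgeR's quasi-likelihood test, 68 of 77 members fell at a Benjamini-Hochberg adjusted p under 0.05 and none rose; of all 17986 genes tested, 23.8% were called lower, 22.5% higher and so 46.3% in either direction. The median change of the members was -0.21 on the log2 scale (0.862-fold), from -0.34 to -0.07, beside a median of -0.01 over all genes tested, and all 77 estimates were negative. Both subunits were alike in this, with 29 of 31 small subunit and 39 of 46 large subunit genes called lower. The SD of the change among members was 0.055, and their median standard error was 0.063. The members vary together from library to library and so share much of that error. Setting the 2 values side by side therefore cannot show whether the changes are equal. Members were lower in GF at each time, 74 to 77 of 77, with medians from -0.14 at ZT22 to -0.28 at ZT10. The median over all genes was 0.008 at ZT22 and -0.015 at ZT10. No member separated the groups fully, where 2.01% of all genes had every GF library below and 1.52% every GF library above every convR library.

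Rps21, a small subunit protein whose gene lies at chr2:180257377-180258445, had the largest fall. It ranged from 90.7 to 121 CPM in convR duodenum (median 105.5, mean 106.6 ± 9.61, n = 12) and from 70.1 to 103.9 in GF duodenum (median 84.3, mean 84.6 ± 10.98, n = 12). The highest GF libraries reached into the lower part of the convR range. The change was -0.34 ± 0.060 (SE) on the log2 scale, an edgeR adjusted p of 0.000103. Rpl41, which encodes the smallest protein of the ribosome, ranged from 252.5 to 435 CPM in convR (median 277) and from 198 to 293 in GF (median 233), and its change was -0.34 ± 0.073 (edgeR adjusted p = 0.000718). For Rpl41 the highest convR library, ZT22 replicate 2, stood above the next at 351 CPM, and the ranges of the groups overlapped. Rpl35 changed by -0.31 (edgeR adjusted p = 0.000701) and Rpl13a by -0.30 (0.00103).

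The stalk of the large subunit, which recruits the elongation factors, is built from Rplp0, Rplp1 and Rplp2. Rplp0, at chr5:115559467-115563727, ranged from 534 to 751 CPM in convR duodenum (median 607) and from 453.5 to 625 in GF (median 522), with much overlap, and fell by 0.22 on the log2 scale (SE 0.058, edgeR adjusted p = 0.00404). Rplp1 changed by -0.23 (edgeR adjusted p = 0.00711) and Rplp2 by -0.21 (0.00189). Rpsa, the small subunit protein also known as the laminin receptor, changed by -0.21 (0.0149), with means of 495 ± 76.2 CPM in convR and 427 ± 36.2 in GF (SD, n = 12 each). The 9 members that did not pass were Rpl7, Rpl7a, Rpl9, Rpl18, Rpl24, Rpl29, Rpl36, Rps14 and Rps16. Their estimates were negative as well.

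Within the replicate numbers the duodenal comparison came out unequal. With replicate 1 alone (6 against 6 libraries), 1 of 77 members was called lower, Rps21 at -0.25 (edgeR adjusted p = 0.0146), with a median of -0.09; of all genes 2354 of 17890 were called lower. With replicate 2 alone, 75 of 77 were called lower, with a median of -0.36, beside 3273 of 18109 genes. The index was lower in GF at 4 of 6 times among replicate 1 libraries, by -0.08 ± 0.105 (SD over times), and at 6 of 6 times among replicate 2 libraries, by -0.34 ± 0.104. GF libraries of either number had nearly the same mean share of reads, 1.39% and 1.38%, and the convR libraries had 1.65% and 1.84%. Without the 8 duodenum libraries that stood apart, 58 of 77 members were called lower, beside 3509 of 18117 genes.

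**Figure D2:**
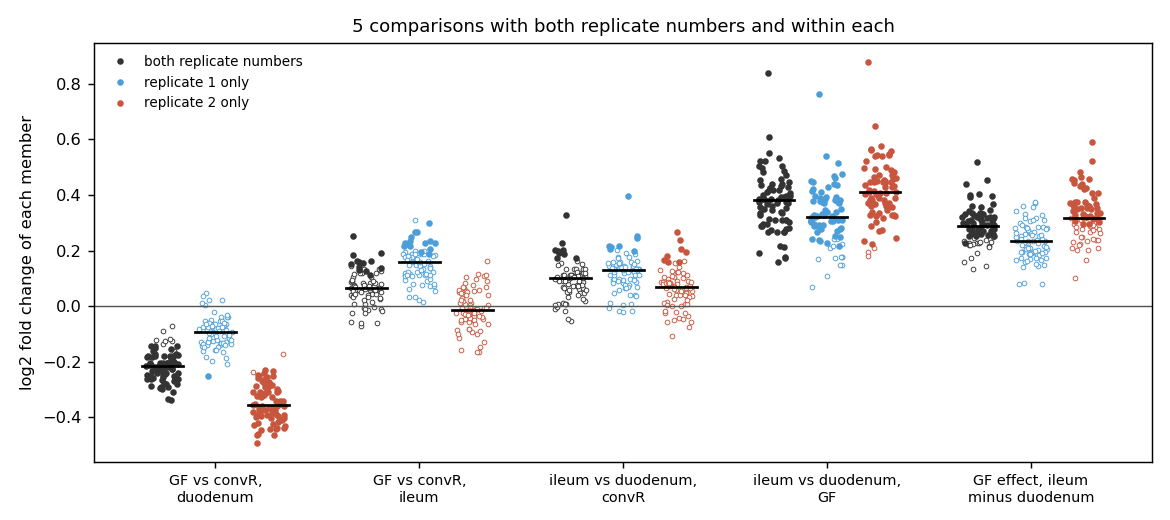
Log2 fold change of each of the 77 ribosomal protein genes (y axis, 1 point a gene) in the 5 comparisons (x axis), fitted with both replicate numbers, with replicate 1 alone and with replicate 2 alone; black bars are medians and filled points have an edgeR adjusted p under 0.05. For GF against convR in duodenum the median is -0.21 with both, -0.09 with replicate 1 and -0.36 with replicate 2.

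Several cell type lists moved in the same comparison. Of 25 cell cycle genes 23 were lower in GF duodenum (median -0.41). Their summed level, per library total and without TMM scaling, ran from 1174 to 2080 CPM in convR and from 860.2 to 1197 CPM in GF, and no gene of the list was at 0. All 9 Paneth cell markers, all 12 macrophage and dendritic cell markers, 17 of 18 T cell markers and all 11 tested B and plasma cell markers were lower. The 12 listed B and plasma cell genes summed to between 2920 and 5879 CPM in convR and between 378 and 900.02 CPM in GF, again without TMM scaling. Of 13 intestinal stem cell markers 8 were lower, and 6 of 13 mature enterocyte markers were higher. The part of these cell types in the lower ribosomal protein level was not tested.

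Genes that work with the ribosome moved less evenly in GF duodenum. Of 35 genes of ribosome assembly and RNA polymerase I, 25 were lower and none higher (median -0.23), among them Heatr1, a factor of the nucleolar small subunit processome, at -0.36 and Nop56, a core protein of box C/D small nucleolar particles, at -0.31. Of 20 translation factors and other TOP mRNAs 7 were lower and 4 higher (median -0.10). Nap1l1, a histone chaperone with a TOP mRNA, changed by -0.49 (edgeR adjusted p = 4.31e-06), while Eef2, the elongation factor that moves the ribosome along, changed by 0.23 (0.00212). Of 73 mitochondrial ribosomal protein genes 24 were lower and 5 higher, and of 77 tested oxidative phosphorylation subunits none passed in either direction in edgeR's test (3 at an unadjusted p under 0.05). Of 16 mTOR pathway genes 7 were higher and 1 lower, among them Deptor, an inhibitor bound to mTOR, at 0.44 and Mtor itself at 0.21.

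In ileum the members called different in GF mice were no larger a share than of genes in general. The test called 13 of 77 members higher in GF and none lower, below the 19.5% of all 18082 genes called higher (22.4% were called lower and 42.0% in either direction). The median was 0.07 (1.05-fold), from -0.07 to 0.25, and 65 of 77 estimates were positive. Small and large subunit genes were called in 5 of 31 and 8 of 46 cases. The called members were Rpl4, Rpl5, Rpl17, Rpl21, Rpl23, Rpl35, Rpl36a, Rpl37a, Rps3a, Rps12, Rps14, Rps24 and Rps26. Higher in GF at 6 of 6 times were 21 members, a count not made over all genes. The members vary together, so it is a description only. Their median at single times ran from -0.01 at ZT22 to 0.16 at ZT18, where that of all genes was -0.005 and 0.016. None had all GF libraries above all convR libraries, where 1.46% of all genes did, and none the reverse, where 4.42% of all genes did.

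The largest rise was in Rps26, at chr10:128624534-128626747, a small subunit protein near the exit of the mRNA. It ranged from 158 to 252 CPM in convR ileum (median 219, mean 209.8 ± 28.5, n = 12) and from 185 to 309 in GF ileum (median 256, mean 252 ± 36.3, n = 11). The ranges overlapped over most of their length. The change was 0.25 ± 0.083 on the log2 scale (edgeR adjusted p = 0.0183). Rpl4, a protein lining the exit tunnel, ranged from 583.5 to 719 CPM in convR (median 673) and from 700.1 to 783 in GF (median 755), so that the groups overlapped only at the edge, and changed by 0.16 (edgeR adjusted p = 0.00766). Rpl17 changed by 0.19 (0.0113) and Rpl21 by 0.18 (0.0104). Of the stalk, Rplp0 changed by 0.09 and Rplp1 by 0.12, and Rplp2 and Rpsa by -0.00 and -0.01, none passing the threshold. Rps21, which fell most in duodenum, changed by -0.06 in ileum (adjusted p = 0.352).

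In ileum the replicate numbers again gave different answers. Replicate 1 alone gave 15 members higher with a median of 0.16, beside 1786 of 18306 genes. Replicate 2 alone gave none in edgeR's test (3 at an unadjusted p under 0.05), beside 2833 of 17987 genes, with a median of -0.01 and 30 of 77 estimates positive. The index was higher in GF at 4 of 5 times among replicate 1 libraries, by 0.16 on average, and at 4 of 6 times among replicate 2 libraries, where its mean difference was -0.02. Without any scaling beyond library size no member was called, so the ileal rise rests on the scaling too. Cell cycle genes were lower in GF ileum as well, 21 of 25 (median -0.24), as were all 12 macrophage and dendritic cell markers, all 18 T cell markers and all 9 Paneth cell markers, while 11 of 12 smooth muscle markers were higher. In GF ileum 1 assembly gene was higher and 2 were lower of 35, and of 20 translation factors 7 were higher and 1 lower, led by Eef2 at 0.39 and Eif4b, a helicase cofactor of initiation, at 0.38.

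**Figure D3:**
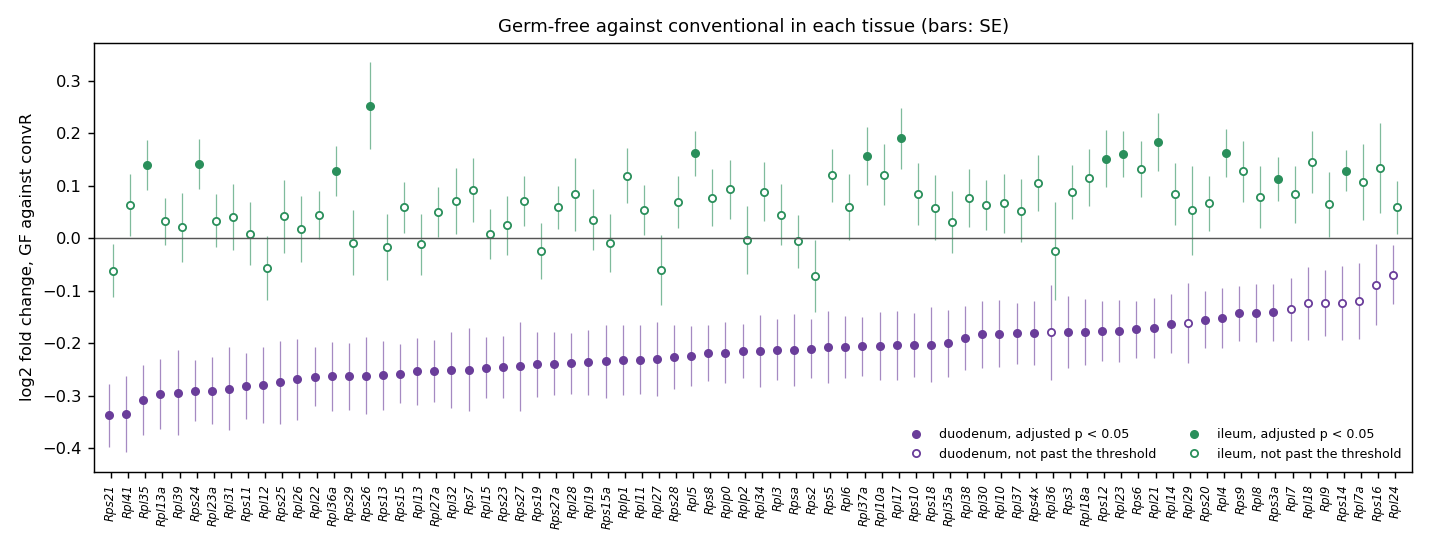
Log2 fold change in GF against convR mice (y axis, bars are standard errors) of 76 of the ribosomal protein genes (x axis, ordered by the duodenal change), in duodenum (purple) and ileum (green), with filled points where the edgeR adjusted p was under 0.05. The duodenum estimates lie below 0 throughout (-0.34 to -0.07), and most ileum estimates lie above 0, the highest that of Rps26 at 0.25.

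The second question was how the 2 gut segments differ. In convR mice 9 of 77 members were higher in ileum and none lower, against 24.9% of all 18164 genes called higher, 24.8% lower and 49.6% in either direction, with a median of 0.10 (-0.05 to 0.33). With each time and replicate number as a block, which pairs same-numbered libraries, 39 members were called higher, beside 5038 of 18164 genes. The members' share so passed from below that of all genes to above it. In convR mice the same-numbered libraries of both tissues deviated together at 6 of 6 times (r from 0.246 to 0.560 across genes), which is the ground for that fit. The 9 members and the p-values given next are from the fit without that block, which takes the libraries as independent. The 9 were Rpl28, Rpl29, Rpl37a, Rplp0, Rps4x, Rps12, Rps20, Rps24 and Rps26, led by Rps26 at 0.33 ± 0.084 (edgeR adjusted p = 0.00245), Rpl29 at 0.23 (0.0438), Rps20 at 0.20 (0.00683) and Rpl28 at 0.20 (0.0329). Rplp0 changed by 0.17 (0.0363). Replicate 1 alone and replicate 2 alone each gave 8 members, beside 3437 of 18318 and 3807 of 18408 genes. At 6 of 6 times 36 members were higher in ileum, a count not made over all genes. No member had all convR ileum libraries above all convR duodenum libraries (3.89% of all genes did).

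In GF mice every one of the 77 members was called higher in ileum than in duodenum, against 33.2% of all 17909 genes; 33.4% of genes were called lower and 66.5% in either direction. The median was 0.38 (1.30-fold), from 0.16 for Rpl36 and 0.17 for Rps2 to 0.84 for Rps26. At every time 74 to 77 members were higher, and 74 were higher at 6 of 6 times. Neither count was made over all genes. In 31 members all 11 ileum libraries lay above all 12 duodenum libraries, as in 8.63% of all genes. Within the replicate numbers 63 members were called higher with replicate 1 and 74 with replicate 2, at medians of 0.32 and 0.41, beside 3868 of 18005 and 4617 of 17957 genes.

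Rps26 had the widest gap, from between 114 and 170 CPM in GF duodenum (median 140) to between 185 and 309 in GF ileum (median 256). No library of one tissue reached the range of the other. The difference was 0.84 ± 0.074 on the log2 scale (edgeR adjusted p = 2.39e-09). Rps24, at chr14:24487125-24496959, a small subunit protein, ranged from 212 to 301 CPM in GF duodenum (median 258) and from 367 to 439.9 in GF ileum (median 397), again without overlap, and differed by 0.61 ± 0.052 (edgeR adjusted p = 1.45e-09). Rpl37a differed by 0.55 (3.26e-09) and Rps12 by 0.53 (3.06e-08). The stalk genes followed, Rplp0 at 0.48, Rplp1 at 0.37 and Rplp2 at 0.27, and Rpsa at 0.22. For Rplp0 all GF ileum libraries, 676 to 814 CPM, lay above the highest GF duodenum library at 625.

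**Figure D4:**
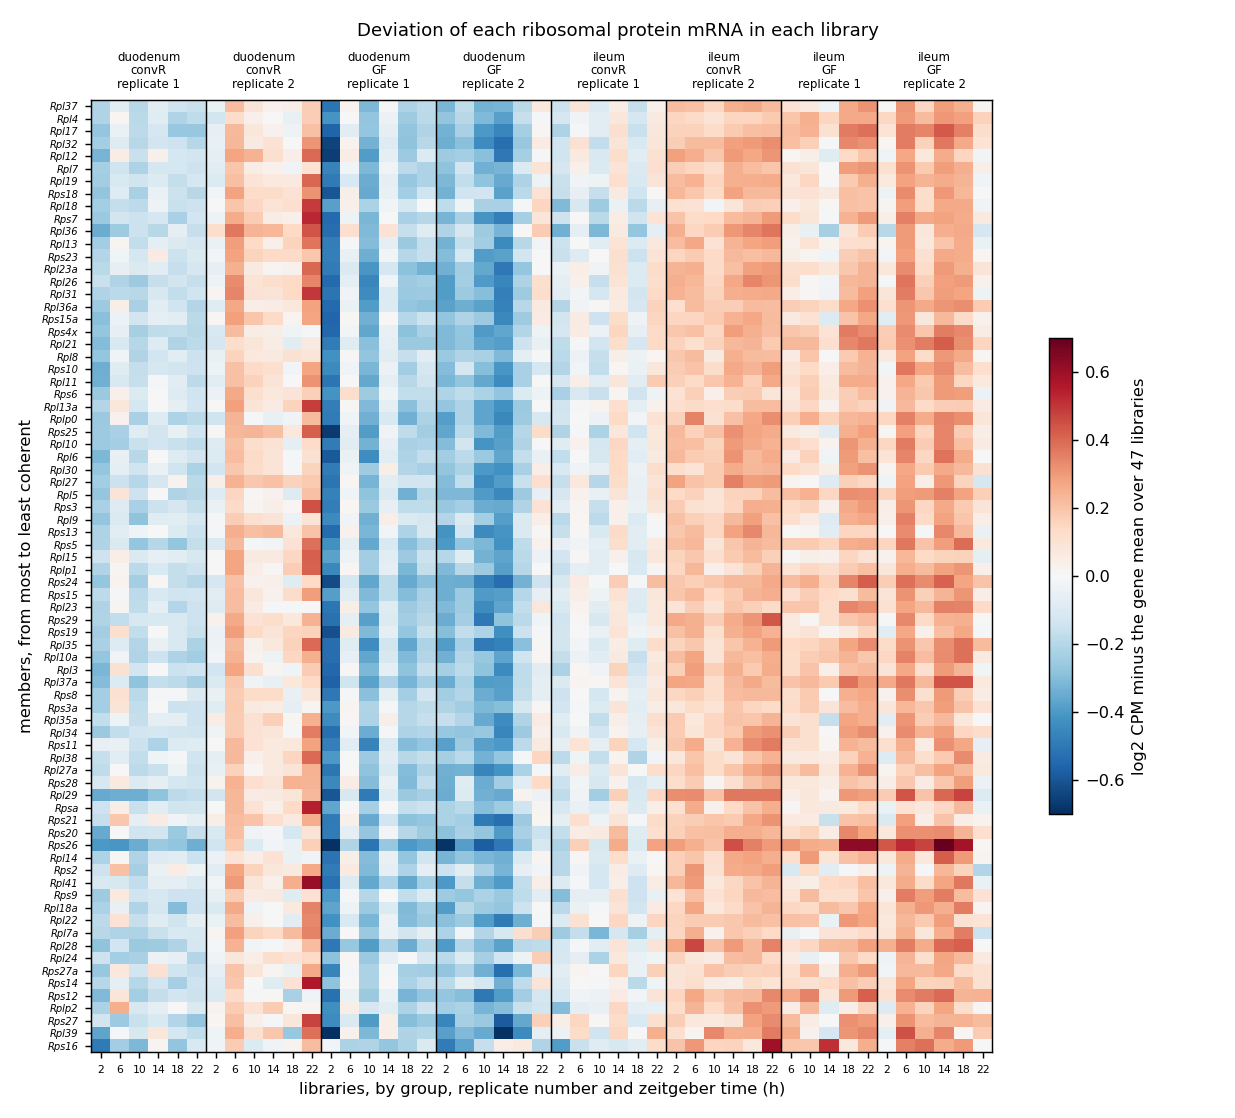
Log2 CPM of 76 of the ribosomal protein genes (rows, from most to least coherent) in each of the 47 libraries (columns, by tissue, status, replicate number and zeitgeber time in hours), minus the gene's mean over the libraries; red is above and blue below that mean. Whole columns share a colour, GF duodenum is mostly blue, and the row of Rps26 shows the widest span between GF duodenum and GF ileum, where its fitted difference was 0.84.

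Genes of the mitochondrion were mostly lower in ileum than in duodenum. Of 77 tested oxidative phosphorylation subunits 73 were lower in ileum in convR mice (median -0.51) and 73 in GF mice (median -0.54), and mitochondrial ribosomal protein genes were lower for 48 of 73 and 46 of 73. In GF mice 25 of 35 assembly genes were higher in ileum and 3 lower, and 18 of 20 translation factors were higher and 1 lower, among them Tpt1, a growth-related TOP mRNA, at 0.55 and Eif3h, a subunit of the initiation factor that binds the small subunit, at 0.38. Cell cycle genes were higher in GF ileum for 19 of 25 and lower for 2; in convR mice 8 were higher and 1 lower. All 12 smooth muscle markers and all 9 Paneth cell markers were higher in ileum in both kinds of mice. Their part in the tissue difference was not tested.

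The change in GF mice differed between the tissues in its own test. The interaction of tissue and status, the ileal minus the duodenal change, passed in 55 of 77 members, all with the change more positive in ileum, beside 4.58% of all 19000 genes in that direction, 7.69% in the other and 12.3% in either. The median was 0.29, from 0.13 to 0.52, and all 77 were positive; over all genes the median was -0.00. Called were 23 of 31 small subunit and 32 of 46 large subunit genes. The largest were Rps26 at 0.52 ± 0.114 (edgeR adjusted p = 0.00181), Rpl35 at 0.45 ± 0.084 (0.000263), Rps24 at 0.44 ± 0.075 (8.25e-05) and Rpl41 at 0.40 ± 0.095 (0.00351). Among those that did not pass were Rplp2 at 0.22 (0.0848) and Rpsa at 0.21 (0.102). Replicate 1 alone called none of the 77 in edgeR's test (43 at an unadjusted p under 0.05, median 0.23), beside 107 of 19105 genes, and replicate 2 alone called 44 (median 0.32), beside 394 of 18945 genes. These comparisons share their libraries with those above and are not further evidence for them. The interaction fit took the convR libraries of both tissues as independent, although same-numbered ones deviated together. In this test 6 of 35 assembly genes, 6 of 20 translation factors and 5 of 25 cell cycle genes passed, each toward ileum, and none of 77 oxidative phosphorylation subunits (1 at an unadjusted p under 0.05).

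Of 7 tested ribosomal proteins and paralogs outside the symbol rule, 4 were lower in GF duodenum and none higher (median -0.20), 1 was higher in GF ileum, and in the interaction all 7 estimates were positive and 1 passed. Gnb2l1, the scaffold protein Rack1 of the small subunit, was lower in GF duodenum by -0.20 (edgeR adjusted p = 0.0107), and its interaction was 0.30 (0.0104). Fau, which fuses a ubiquitin-like protein to a small subunit protein, changed by 0.09 in GF duodenum (0.347) and by 0.23 in GF ileum (0.00177). Rpl36al, a paralog of Rpl36a, changed by -0.30 in GF duodenum (0.0011) and by -0.08 in GF ileum (0.373).

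The series sampled the day at 6 times, and a 24 h cosine was fitted in each group. No member had a rhythm at an adjusted p under 0.05 in any group, and none reached an unadjusted p under 0.05 in edgeR's test. Of all genes, 0.0301% were called rhythmic in convR duodenum, 2.68% in GF duodenum, 0.133% in convR ileum and 1.39% in GF ileum, so few calls were to be had in the convR groups. The median fitted range from peak to trough of the members was 0.09 in convR duodenum, 0.08 in GF duodenum, 0.09 in convR ileum and 0.07 in GF ileum on the log2 scale. Over all genes the corresponding medians were 0.275, 0.251, 0.215 and 0.205. A fitted range is never negative and grows with scatter, which is larger for genes of few counts. Without the low-count filter the convR duodenum median was 0.495 over all genes and 0.097 for the members. The gap between members and all genes therefore cannot show that the members were unusually flat. The smallest p of any member was that of Rps16 in GF ileum, with a range of 0.29 (edgeR adjusted p = 0.479). Tests for a difference in rhythm between GF and convR called no member in either tissue, and called 0% of all genes. Within a single replicate number, 5 or 6 libraries to a group, again no member passed, but the fitted ranges were wider. In GF duodenum the median range was 0.177 with replicate 1 and 0.294 with replicate 2 (all genes 0.291 and 0.359). In GF ileum it was 0.181 and 0.216 (all genes 0.315 and 0.25). The low values above were thus not found within a number in GF mice. Fewer libraries widen a fitted range by scatter alone, so these values cannot decide whether the members' range was low. In convR mice it was 0.121 and 0.122 in duodenum and 0.105 and 0.103 in ileum. With replicate 2 alone 3 members in GF duodenum had an unadjusted p under 0.05, and 1 in duodenum and 2 in ileum did so in the test of a GF difference, whose median ranges were 0.251 and 0.278 there. With the 6 times as a factor in place of a cosine, 2 members in GF duodenum had an unadjusted p under 0.05 and none passed after adjustment.

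Within a group the members varied together from library to library. The median correlation of log2 levels over the 2926 pairs of members was 0.861 in convR duodenum, 0.902 in GF duodenum, 0.920 in convR ileum and 0.806 in GF ileum, with 12, 12, 12 and 11 libraries; the median over pairs of all 19000 genes was 0.00 to within 0.01. Pairs with a positive correlation made up 100% of members in both convR groups, 97.5% in GF duodenum and 99.9% in GF ileum. With the mean of each time removed the medians were 0.924, 0.871, 0.956 and 0.875, with 12, 12, 12 and 10 libraries. What remains at a time with 2 libraries is the difference between replicate 1 and replicate 2. In convR mice all 77 members shared the direction of that difference, so the convR values 0.924 and 0.956 hold that shared shift. With the time means left in, the convR median was lower within a single replicate number, down to 0.642 in duodenum and 0.588 in ileum. The points of these correlations share library, depth and the scaling.

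The members differed in how closely they followed the rest. Rpl37 had the highest mean correlation with the other 76 members (0.897), followed by Rpl4 and Rpl17 at 0.892. The lowest were Rps12 at 0.754, Rplp2 at 0.737, Rps27 at 0.726, Rpl39 at 0.718 and Rps16 at 0.386. Rps16 encodes a small subunit protein near the decoding site, and its gene lies at chr7:28350652-28353155. It followed the others in convR mice, at 0.783 in duodenum and 0.773 in ileum, but stood at -0.257 in GF duodenum and 0.244 in GF ileum. Its levels were 54.2 to 89.3 CPM in convR duodenum (median 73.6), 54.6 to 80.5 in GF duodenum (median 66.3), 58.4 to 116 in convR ileum (median 82.4) and 76.3 to 109.7 in GF ileum (median 91.7). All 4 ranges overlapped.

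**Figure D5:**
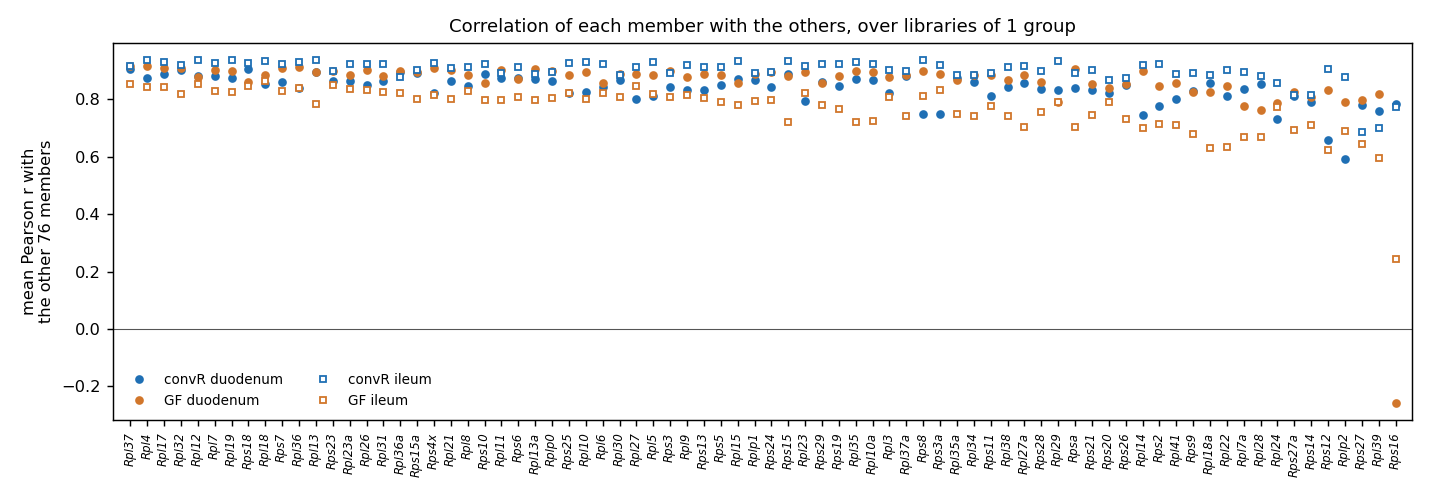
Mean Pearson correlation with the other 76 members (y axis, log2 levels over the libraries of 1 group) of 76 of the ribosomal protein genes (x axis), with a symbol for each of the 4 groups of tissue and status. Rps16, at the right end, falls to -0.257 in GF duodenum and 0.244 in GF ileum, while it stands at 0.783 and 0.773 in convR mice.

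Outside the rule, genes whose levels were among the most like the members' index over the 47 libraries, with group means removed, were Gnb2l1 (r = 0.966), Eif3i (0.951), Eef1a1 (0.935), SNORD58 (0.907), AC113480.1 (0.893), Eif3h (0.876), SNORA72 (0.874) and Ifitm2 (0.872). Eif3i and Eif3h are subunits of an initiation factor, and Eef1a1 is the elongation factor that brings aminoacyl-tRNA. SNORD58 lies inside Rpl17 and SNORA72 inside Rpl30, so those rows may share reads with the gene that holds them. By list, the median correlation with the index was 0.749 for 20 translation factors and other TOP mRNAs, 0.564 for 77 oxidative phosphorylation subunits, 0.560 for 73 mitochondrial ribosomal proteins, 0.530 for 25 cell cycle genes, 0.466 for 12 macrophage and dendritic cell markers, 0.336 for 35 assembly genes and -0.11 for 16 mTOR pathway genes, and 0.015 for all genes outside the rule. These values are descriptions over libraries that share depth and scaling. The shift between replicate numbers in convR mice was not removed and enters them too.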

How the data were processed

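Libraries were made with the TruSeq Stranded Total RNA kit after rRNA removal and, per the submitters' processing notes, aligned with STAR 2.4.0i to mm10. The authors deposited 1 table of raw exon read counts per gene with an exon length; no source used here names the counting tool, its annotation or its strand setting, so reads of overlapping or antisense genes and of processed pseudogenes cannot be told apart from those of members. Gene models and coordinates are from GENCODE M21 (GRCm38), promoters from RefSeq. Genes were filtered with filterByExpr (minimum count 10 by tissue and status; all 77 members passed) and tested with edgeR 4.0.16 (limma 3.58.1, R 4.3.3): TMM, robust quasi-likelihood fits, time as a factor (cosine and sine of 24 h for rhythm), Benjamini-Hochberg adjustment over all tested genes at 0.05. Standard errors are the log2 change over the root of F. Levels are TMM-scaled CPM over 47 libraries. DESeq2 1.42.0, other scalings and filters, a replicate block, single replicate numbers and left-out libraries were tried. The block was the replicate number, but in the tissue comparisons each combination of time and replicate number. The pairing rule asked that the correlation of deviations between same-numbered libraries be over 0.1 at every time. It held for convR ileum with convR duodenum. The main fits, that of the interaction included, did not pair libraries. Pairing entered the tissue comparisons only through the block. Named members were Rplp0, Rplp1, Rplp2, Rpsa, the 4 largest changes each way, the 5 highest and lowest by RPKM and the least coherent. The scripts were tested on simulated data. The members and gene lists were chosen with earlier results of these data known. Values of 1 member and of 1 gene outside the rule are not reported here.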

Additional observations from a re-analysis of the deposited data

Results flagged for a closer look

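The difference of the GF change between ileum and duodenum, ileum minus duodenum, passed edgeR's test of the interaction for 55 members. Among the members named in the text it was 0.52 for Rps26, 0.45 for Rpl35, 0.44 for Rps24, 0.40 for Rpl41, 0.40 for Rpl17, 0.37 for Rpl37a, 0.36 for Rpl21, 0.36 for Rplp1, 0.33 for Rpl13a, 0.33 for Rpl28, 0.33 for Rps12, 0.32 for Rpl4, 0.32 for Rplp0, 0.28 for Rps21 and 0.23 for Rps20, on the log2 scale. Replicate 1 alone called none of the 77 members in this test and replicate 2 alone called 44; in convR mice the members were higher in replicate 2.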

How the results depend on the processing

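The members called lower in GF duodenum numbered 1 to 75 with one replicate number left out, beside 2354 of 17890 and 3273 of 18109 genes. With 1 library left out they numbered 61 to 71, and of all genes 3974 to 4527 were called lower. Those called higher in GF ileum numbered 0 to 18 over all such fits, where 1786 to 3610 of all genes were called higher. With library size scaling only they numbered 0, beside 2320 of 18082 genes. Without the libraries that stood apart they numbered 21, beside 3252 of 18087 genes. The ileal median ran from -0.014, without replicate 1, to 0.16. The interaction count ran from 0 to 44 with 1 replicate number left out, beside 107 of 19105 and 394 of 18945 genes. It was 40 without a filter, beside 611 of 33627 genes, and 70 with library size only, beside 1208 of 19000. In convR mice the tissue count was 39 with library size only, beside 5144 of 18164 genes, and 4 without a filter, beside 4380 of 31759. With each time and replicate number as a block it was 39, beside 5038 of 18164 genes. With the replicate number as a block the counts were 69 in duodenum, 19 in ileum and 65 for the interaction. Beside them stood 4384 of 17986, 3951 of 18082 and 1005 of 19000 genes. With each time and replicate number as a block the GF tissue comparison gave 75, beside 5801 of 17909 genes. Only the convR libraries of both tissues met the pairing rule. Correlations of same-numbered libraries elsewhere were over 0.1 at 2 of 6, 2 of 5 and 1 of 5 times. DESeq2 gave 68, 19, 9, 77 and 62 members for the 5 comparisons. In the same directions it called 4283 of 17986, 3943 of 18082, 4439 of 18164, 5979 of 17909 and 977 of 19000 genes. With library size only the median of all genes was -0.136 in duodenum and 0.132 in the GF tissue comparison, against -0.008 and 0.010 with TMM. Without the row named Rpl24 the 5 counts were 68, 13, 9, 76 and 55 of 76. Pair correlations ran from 0.642 to 0.811 in convR duodenum and from 0.588 to 0.880 in convR ileum with 1 replicate number left out. With the 100 highest genes left out of the total, the members' share was 2.29%, 1.83%, 2.50% and 2.56% in convR duodenum, GF duodenum, convR ileum and GF ileum. The planned total without mitochondrial genes was not run, since no row had such a symbol. The cause of these differences was not tested. Values near 0 changed sign: in ileum Rplp2 was 0.00918 with DESeq2's size factors, 0.00912 with DESeq2, 0.026 without the libraries that stood apart and -0.099 to 0.093 with libraries left out, and Rpsa was 0.00756, 0.00753, 0.038 and -0.084 to 0.091 in the same fits. In the convR tissue comparison Rplp1 ran from -0.035 to 0.077, Rpsa from -0.044 to 0.067 and Rplp2 from -0.017 to 0.104 with sets of libraries left out. No fit of that comparison left out 1 library alone. The lowest values were those without replicate 1 for Rplp1 and Rpsa and without replicate 2 for Rplp2.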

Other observations

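Rows named as ribosomal protein pseudogenes took 0.0288% of counts in convR duodenum, 0.0225% in GF duodenum, 0.0313% in convR ileum and 0.0339% in GF ileum. In GF ileum 32 of 86 tested such rows were higher than in convR and 2 lower (median 0.24), and in duodenum 20 of 82 were lower and 1 higher (median -0.22). In GF mice 68 of 86 were higher in ileum than in duodenum and none lower (median 0.52). The median correlation of such rows with the members' index was 0.213, and 75 of 93 were above 0. These rows may hold reads of the members, but that was not tested, and their sequences were not compared with the members'.

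Among mTOR pathway genes the inhibitor Deptor was higher in GF mice in both tissues, by 0.44 in duodenum and 0.55 in ileum, and Eif4ebp2, a repressor of cap-dependent initiation, was higher in GF ileum by 0.44. In the interaction none of the 16 passed in edgeR's test, with 2 at an unadjusted p under 0.05.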
